A study of Mus musculus with 4 samples.

Results

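The 36 genes described here mark where a cell stands in the division cycle, and they were listed by name, with earlier results of these data known. Of these, 14 belong to S phase, when DNA is copied, and 20 to G2 phase and mitosis (G2/M), when the copied chromosomes are separated. Hmgb2 and Stmn1 rise in dividing cells but were put in neither list. All 36 were present in each of the 3 deposited tables, which hold 13071, 12801 and 12996 genes.

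The study measured RNA in single cells from subcutaneous mouse tumours with 10x Genomics droplets. The LLC library (Lewis lung carcinoma) came from F11r fl/fl LysM-Cre- mice, which carry a floxed F11r gene and lack the Cre recombinase that LysM drives in myeloid cells. The B16 library (melanoma) and a second LLC library, for which RNA and bound antibodies were counted together (CITE-seq), came from C57BL/6J mice. Each library pooled 3 mice, and the labels name no treatment.

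Each group was therefore 1 library, so that no difference between groups has a replicate check, and tumour, host strain and library cannot be told apart. The LLC and B16 libraries shared a table with 1 set of cluster names (the joint table), B16 also had a table with names of its own, and a table of monocytes and macrophages added the CITE-seq library. Levels below are unique molecular identifiers (UMIs) of a gene or list per 1000000 UMIs of the cluster, abbreviated CPM. Brackets hold exact 95% bounds, which reflect the counting of UMIs or cells and nothing else. A gene is called higher or lower only past a ratio of 1.5, and only where both sides together hold at least 20 UMIs, which is what "measured" means below.

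Before S phase the Mcm2 to Mcm7 helicase is loaded onto DNA, and Gmnn (geminin) blocks a further loading once copying has begun. Nucleotide enzymes such as ribonucleotide reductase (Rrm1, Rrm2), thymidylate synthase (Tyms), thymidine kinase (Tk1) and dUTPase (Dut) supply the building blocks, while the Pcna clamp and its partner Pclaf act at the fork. Cdk1 with cyclins A and B then drives mitosis, and ubiquitination through Cdc20 and Ube2c ends it. In tumours, monocytes arrive from the blood and mature into macrophages, some macrophages divide in place, and activated T cells expand, whereas mature neutrophils have left the cycle.

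The joint table held 13021 LLC cells with a median of 6174 UMIs and 6870 B16 cells with a median of 8315. Of these, 16 LLC and 19 B16 clusters had at least 50 cells. The LLC and B16 libraries shared 29 cell barcodes, LLC and CITE-seq shared 24, and B16 and CITE-seq shared 21. Cell cycle genes were among those the clusters were made from, so differences between clusters are given as a description. Clusters called TAM (tumour-associated macrophage) with a number in the monocyte and macrophage table are other groups of cells than those with the same names in the joint table.

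Most G2/M transcripts of each tumour came from a few clusters. In LLC the Prolif TAM cluster, 331 proliferating macrophages, made up 2.54% of the cells and held 78.6% of the G2/M UMIs, but 30.9% of the S phase UMIs. In B16 the Prolif CD8 T cells, 437 cells, made up 6.36% of the cells and held 50.2% of the G2/M UMIs and 30.9% of the S phase UMIs. A further 31.2% of the B16 G2/M UMIs lay in TAM-3, which made up 18.8% of the cells. S phase transcripts were spread more widely, and the B16 CD8 T cells outside the proliferating cluster held 23.4% of them against 5.96% of the G2/M UMIs. Of these 787 cells, 170 are named CD8 T cells-Prolif in the B16 table and held 12006 of the 19835 S phase UMIs. Under that table's own names the CD8 T cells held 8.15% of the S phase and 1.80% of the G2/M UMIs. Each tumour's leading cluster was almost absent from the other tumour, since B16 had 8 Prolif TAM cells, LLC had 11 Prolif CD8 T cells and 7 TAM-3 cells, so such a cluster may mark the library as well as a cell type.

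Summed over the 14 genes, the S phase level had a median of 155.8 CPM over the 16 LLC clusters, from 47.5 to 1864. Over the 19 B16 clusters its median was 279.0 CPM, from 86.9 to 3123. The G2/M sum of 20 genes had a median of 38.8 CPM in LLC, from 15.8 to 4515, and of 103.2 CPM in B16, from 43.0 to 5152. The range was thus wider for G2/M than for S phase in both tumours. Sums above 1000 CPM were reached for S phase by 2 LLC and 5 B16 clusters, and for G2/M by 1 LLC and 3 B16 clusters.

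**Figure D1:**
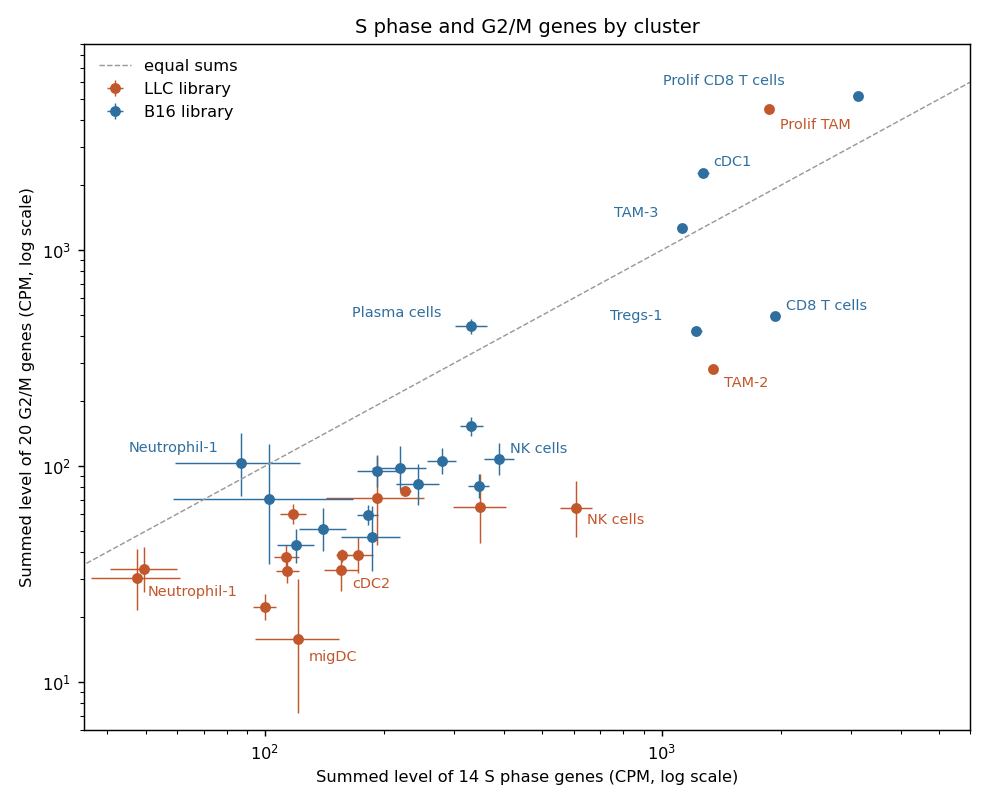
Sum of the 14 S phase genes (horizontal, CPM, log axis) against the sum of the 20 G2/M genes (vertical, CPM, log axis) in each joint-table cluster of at least 50 cells; orange points are LLC, blue points B16, bars are exact 95% intervals and the dashed line marks equal sums. Prolif TAM and Prolif CD8 T cells lie at the top right above the line, whereas TAM-2 of LLC and CD8 T cells of B16 lie far to the right and below it.

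The S phase sum of Prolif CD8 T cells in B16 was 3123 CPM (3085 to 3161) and their G2/M sum 5152 (5103 to 5200), a ratio of S to G2/M of 0.606 (0.597 to 0.616). Prolif TAM in LLC had sums of 1864 CPM (1828 to 1900) and 4515 (4459 to 4572), a ratio of 0.413 (0.403 to 0.422). TAM-2 in LLC, 445 macrophages, reached an S phase sum of 1350 CPM (1322 to 1377) with a G2/M sum of only 282 (270 to 295). Its ratio was 4.78 (4.56 to 5.02), so TAM-2 and Prolif TAM stood on opposite sides of equal sums. The 787 CD8 T cells of B16 showed the same arrangement beside their proliferating counterpart, with sums of 1928 CPM (1901 to 1955) and 498 (484 to 512) and a ratio of 3.87 (3.76 to 3.995). Since genes differ in length and capture, these ratios compare clusters and do not weigh S phase against G2/M within a cluster.

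To count cells at matched depth, each cell was thinned to 2000 UMIs, and cells with UMIs of at least 2 different S phase (or G2/M) genes are called S cells (or G2/M cells). In Prolif CD8 T cells 85.2% of 420 cells were S cells and 96.2% were G2/M cells, and 81.7% were both. In Prolif TAM 60.3% (54.8 to 65.6) of 330 cells were S cells and 91.8% (88.3 to 94.5) were G2/M cells. In TAM-2 the shares were 57.2% (52.4 to 61.9) and 10.3% (7.58 to 13.5) of 439 cells. TAM-2 thus held about as large a share of S cells as Prolif TAM but few G2/M cells. Of the CD8 T cells of B16, 52.4% (48.8 to 55.9) of 785 were S cells and 16.7% (14.1 to 19.5) were G2/M cells.

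These classes are ranges along a scale, and many cells lie near the limit. Among the B16 CD8 T cells 204 had exactly 1 S phase gene and 134 exactly 2, and among TAM-2 cells 95 had 1 and 81 had 2. Without thinning, 93.3% of TAM-2 cells counted as S cells and 49.7% as G2/M cells, and 91.7% and 56.5% of the CD8 T cells did. Neutrophils served as the reference for cells that have left the cycle, which may not hold for other cell types. Of 505 LLC neutrophils with enough UMIs (1450 had fewer than 2000), 0.396% were S cells and 0 were G2/M cells, which allows a share of up to 0.594%. Of 86 B16 neutrophils 2.33% were S cells and 1.16% G2/M cells. Their median depth was 1492 and 1700 UMIs, against 15103 in TAM-2 and 11176 in the CD8 T cells. Without thinning, 0.307% of all LLC neutrophils were S cells and 0.205% were G2/M cells. Naive T cells of B16, 743 cells with those under 2000 UMIs included, held 86 S cells and 5 G2/M cells after thinning. The neutrophil share is thus not a background for T cells.

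**Figure D2:**
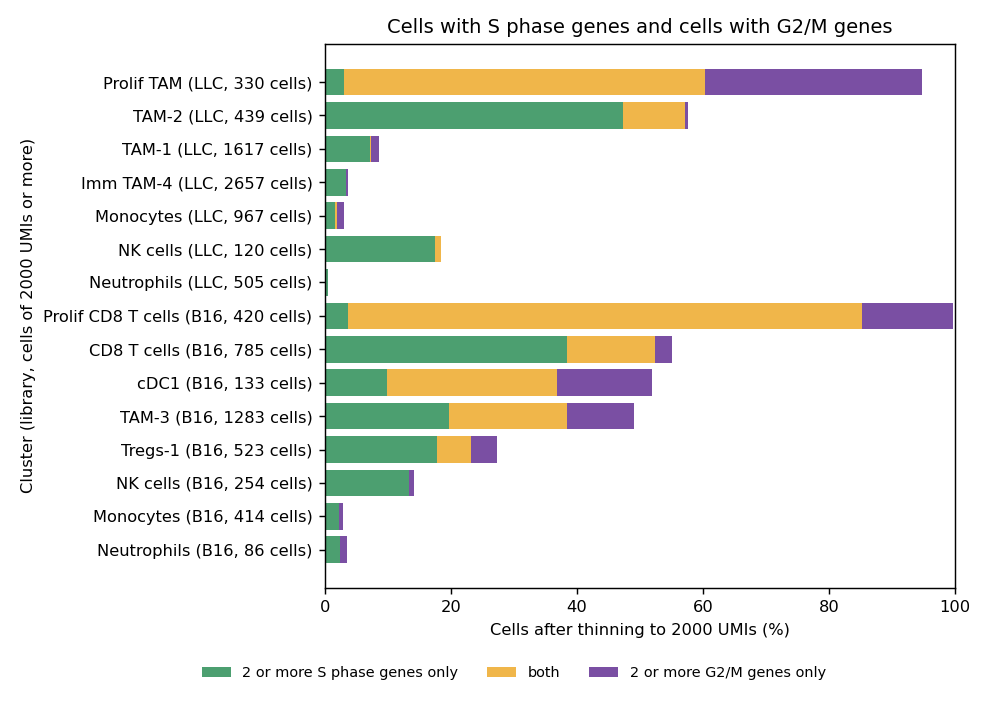
Share of cells (percent, after thinning to 2000 UMIs) with at least 2 S phase genes only, with both, and with at least 2 G2/M genes only, as stacked bars for the clusters named. In TAM-2 and CD8 T cells the S-only class (47.4% and 38.3%) is the largest of the classes drawn, and in Prolif TAM and Prolif CD8 T cells it is the class with both.

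Gene by gene, all 20 G2/M members were highest in Prolif TAM among LLC clusters and in Prolif CD8 T cells among B16 clusters of the joint table. Under the B16 table's own names 11 were highest in CD8 T cells-Prolif and 9 in Mac-Prolif (Mki67, Ccnb1, Cenpe, Birc5, Aurka, Bub1, Plk1, Tpx2 and Kif20a). Mki67, the Ki-67 proliferation antigen, measured 474 CPM in Prolif TAM and 425 CPM in Prolif CD8 T cells. In TAM-2 it measured 37.0 CPM, in the CD8 T cells 48.9 CPM, and in neutrophils 3.20 CPM (LLC) and 5.72 CPM (B16). After thinning, 54.6% of Prolif TAM cells had an Mki67 UMI, against 5.92% in TAM-2 and 0.198% in LLC neutrophils. Mki67 in TAM-2 thus lay well below Prolif TAM and still above the neutrophils.

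Top2a, the topoisomerase that untangles copied chromosomes, measured 550 CPM in Prolif TAM, 56.8 CPM in TAM-2, 779 CPM in Prolif CD8 T cells and 132 CPM in the CD8 T cells. Ccnb2, a B-type cyclin, measured 159 CPM in Prolif TAM against 7.69 CPM in TAM-2, and 213 CPM in Prolif CD8 T cells against 34.99 CPM in the CD8 T cells. Cdc20, which activates the anaphase ubiquitin ligase, measured 122 CPM in Prolif TAM and 3.99 CPM in TAM-2. For all 4 of these genes the paired clusters differed by far more than counting error.

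Outside the proliferating clusters, the highest level of every G2/M member in B16 was in cDC1, the dendritic cells that present antigen to CD8 T cells. In LLC the highest level was in TAM-2 for 15 of the 20, and elsewhere for Ccnb2 and Ube2c (monocytes, 8.43 and 21.9 CPM), Cenpe and Plk1 (B cells) and Kif20a (neutrophils), all at low levels. The Mcm genes were ordered otherwise. All 6 helicase genes of LLC were highest in TAM-2 and not in Prolif TAM, and Mcm2, Mcm3, Mcm4 and Mcm6 of B16 were highest in CD8 T cells and not in Prolif CD8 T cells. Under the B16 table's own cluster names, all 6 were highest in the cluster named CD8 T cells-Prolif, so this order in B16 depends on where the cluster border was drawn.

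**Figure D3:**
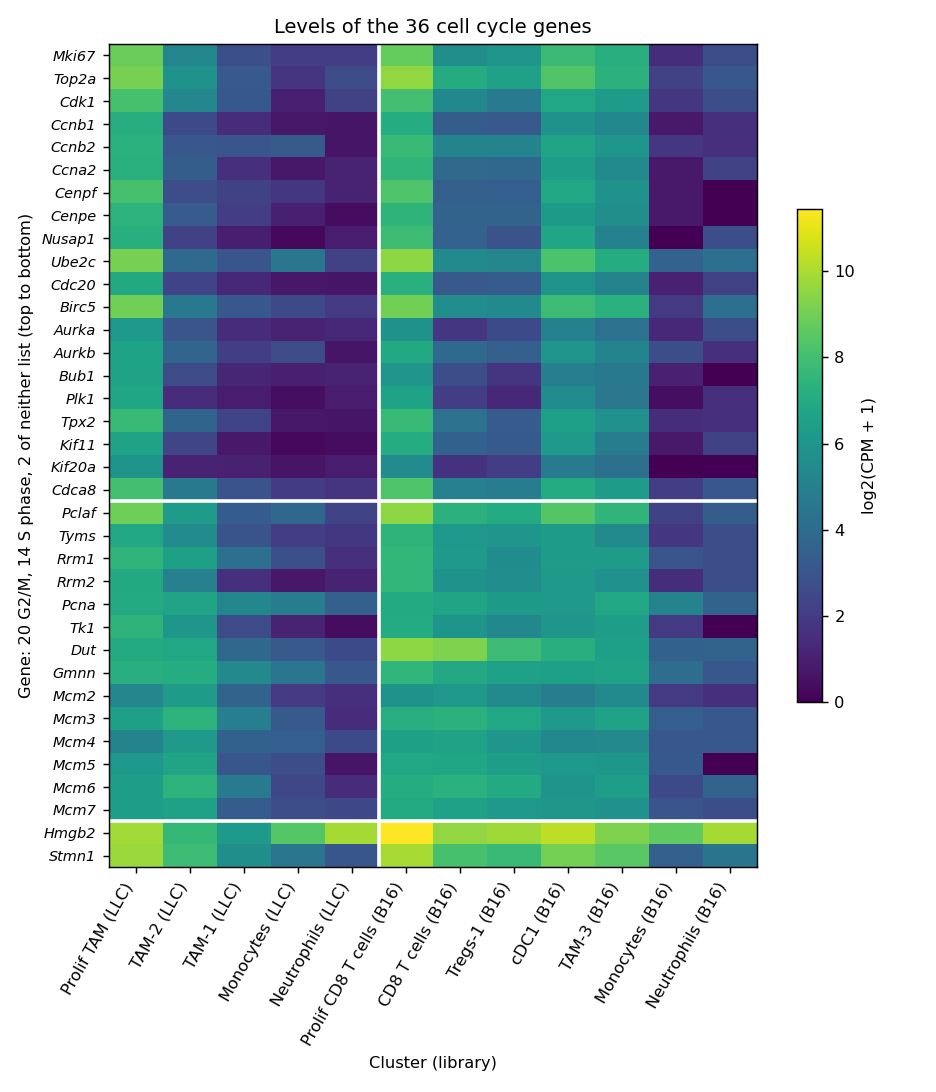
Heat map of log2(CPM + 1) of the 36 genes (rows, grouped by phase) in 12 clusters of LLC and B16 (columns). Colours should be compared along a row, since levels are not scaled to gene length; lighter colours are higher levels. G2/M rows are lightest in the proliferating clusters, followed in B16 by cDC1 and TAM-3, whereas the Mcm rows are at least about as light in TAM-2 and CD8 T cells.

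Each proliferating cluster was next compared, gene by gene, with the cluster of the same lineage and library that was rich in S phase transcripts. All 20 G2/M genes were lower in TAM-2 than in Prolif TAM, by a median of 19.9-fold, from 7.13-fold for Cdk1, the mitotic kinase, to 63.1-fold for Plk1, a kinase of spindle assembly. Among all 10528 genes measured in this pair, 10.3% were lower in TAM-2 and 7.94% were higher. The 14 S phase genes fell on both sides, with 5 higher in TAM-2, 5 lower and 4 between the limits. The 5 that were higher were all helicase subunits, Mcm2 to Mcm6. Mcm2 measured 78.9 CPM in TAM-2 and 38.6 CPM in Prolif TAM, a ratio of 2.04 (1.74 to 2.40), and Mcm6 measured 167 against 83.0 CPM, a ratio of 2.02 (1.81 to 2.25). Mcm7, the remaining subunit, measured 92.4 against 83.4 CPM and stayed within the limits.

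The 5 that were lower in TAM-2 serve the fork and the nucleotide pool. Pclaf, which binds the clamp, measured 80.2 CPM in TAM-2 and 481 CPM in Prolif TAM, 6.00-fold lower. Rrm2, the regulated subunit of ribonucleotide reductase, measured 31.0 against 124 CPM, 3.99-fold lower. Tk1, Tyms and Rrm1 were 2.58-fold, 2.53-fold and 1.98-fold lower. Pcna stayed within the limits, at 104 CPM in TAM-2 and 126 CPM in Prolif TAM, as did Dut and Gmnn.

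The T cells of B16 gave a like picture except for the helicase. All 20 G2/M genes were lower in CD8 T cells than in Prolif CD8 T cells, by a median of 12.4-fold, from 5.92-fold for Top2a to 31.4-fold (all genes: 12.2% lower and 6.28% higher of 11075). Of the S phase genes 6 were lower and 8 between, with Pclaf 4.41-fold, Rrm2 3.40-fold, Rrm1 2.74-fold, Tyms 2.60-fold, Tk1 2.18-fold and Gmnn 1.56-fold lower. No Mcm gene passed the limit in either direction. Mcm3 measured 162 CPM in CD8 T cells and 144 CPM in Prolif CD8 T cells.

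In the B16 table's own names, Mac-1 (724 macrophages) was set against Mac-Prolif (322 cells). All 20 G2/M genes were lower in Mac-1, by a median of 16.7-fold, from 3.67-fold for Ccnb2 to 50.9-fold for Plk1 (all genes: 9.69% lower and 5.88% higher of 11058). Of the S phase genes 8 were lower and 6 between. Pclaf (75.5 against 468 CPM) and Rrm2 (26.7 against 129 CPM) were again the lowest in ratio, and Mcm2 measured 54.1 CPM in Mac-1 and 44.3 CPM in Mac-Prolif. Mcm2 to Mcm6 stayed within the limits here, so none was called higher in Mac-1. Mcm7 was called lower, at 52.8 CPM in Mac-1 against 80.0 CPM in Mac-Prolif.

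Summed by role, the 6 helicase genes reached 683 CPM in TAM-2 and 398 CPM in Prolif TAM, and 681 CPM in CD8 T cells against 669 CPM in Prolif CD8 T cells. The other way round, Cdk1 with its 3 cyclins reached 60.4 CPM in TAM-2 and 723 CPM in Prolif TAM. The chromosomal passenger complex members Birc5, Aurkb and Cdca8, which correct attachments of chromosomes to the spindle, reached 59.95 and 867 CPM. Cdc20 and Ube2c, which act at anaphase, reached 18.1 and 675 CPM. The motor, kinetochore and spindle genes Cenpf, Cenpe, Kif11, Kif20a, Tpx2 and Nusap1 reached 35.6 and 957 CPM. Among these groups the sum was higher in TAM-2 for the helicase alone.

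**Figure D4:**
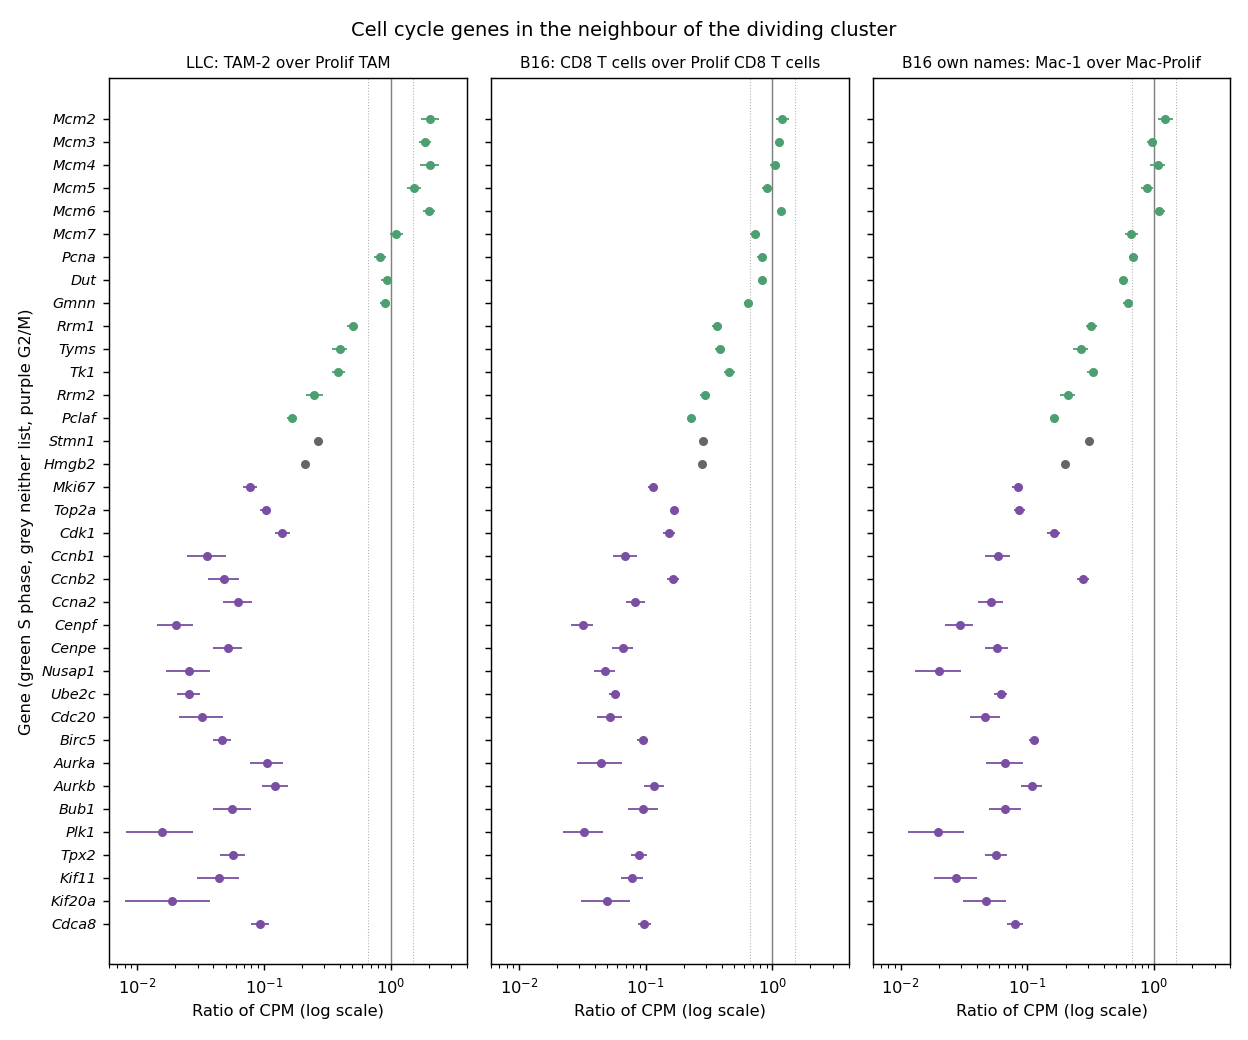
Ratio of each gene's CPM in the S-phase-rich cluster to that in the proliferating cluster of the same lineage (log axis, bars are exact 95% intervals, dotted lines mark 1.5-fold) for TAM-2 over Prolif TAM, CD8 T cells over Prolif CD8 T cells, and Mac-1 over Mac-Prolif. G2/M genes lie far below 1 in every panel, while Mcm2 to Mcm6 lie within the dotted lines or above them. Mcm7 lies just below the lower dotted line for Mac-1.

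Since the S phase and G2/M members moved apart in these pairs, their promoters were searched for 3 motifs known from cell cycle promoters. Promoter windows of RefSeq (GRCm38.p6), 250 bases before to 50 after the annotated start, were found for 16 G2/M and 12 S phase members and searched on both strands, counting overlapping matches separately. The cell cycle homology region (CHR, TTTGAA or TTTAAA) was present in 14 of the 16 G2/M windows (87.5%), in 5 of the 12 S phase windows (41.7%) and in 27.8% of 27025 windows of all genes. The CCAAT box (CCAAT) was present in 14 of 16 G2/M windows, in 9 of 12 S phase windows (75.0%) and in 37.9% of all. CHR and CCAAT occurred together in 13 of 16 G2/M windows (81.3%), in 4 of 12 S phase windows (33.3%) and in 10.9% of all. E2F motifs (TTTCCCGC, TTTCGCGC, TTTGCCGC or TTTGGCGC) were present in 5 of 12 S phase windows (Pclaf, Mcm3, Mcm5, Mcm6 and Mcm7), in 1 of 16 G2/M windows (Cdk1) and in 2.32% of all.

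In choosing promoters to print, Dut (16372 UMIs), Pclaf (13191 UMIs) and Pcna (6040 UMIs) were passed over. Their windows overlapped the annotated gene too far, by 250, 86 and 134 bases. Promoters are printed as examples for the 3 S phase and the 3 G2/M genes with most UMIs in the B16 table among the remaining genes with a window. They were not picked for their motifs. Each stops short of the transcribed region, runs 5′ to 3′ on the gene's strand, and has motif matches on either strand in capitals; both E2F matches of Mcm3 and the CHR match of Ube2c lie in the rest of the window and are not shown. Positions are chr1:20820313-20820562 on the minus strand for Mcm3, chr1:128359706-128359955 on the minus strand for Mcm6, chr7:102441445-102441694 on the plus strand for Rrm1, chr11:99024190-99024439 on the minus strand for Top2a, chr2:164769679-164769897 on the plus strand for Ube2c and chr11:117848987-117849236 on the plus strand for Birc5.
Mcm3: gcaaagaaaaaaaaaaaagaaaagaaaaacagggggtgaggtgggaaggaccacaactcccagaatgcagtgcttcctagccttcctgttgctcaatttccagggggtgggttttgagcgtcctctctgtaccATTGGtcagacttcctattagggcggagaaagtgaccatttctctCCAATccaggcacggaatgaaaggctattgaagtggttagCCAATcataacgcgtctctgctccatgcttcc
Mcm6: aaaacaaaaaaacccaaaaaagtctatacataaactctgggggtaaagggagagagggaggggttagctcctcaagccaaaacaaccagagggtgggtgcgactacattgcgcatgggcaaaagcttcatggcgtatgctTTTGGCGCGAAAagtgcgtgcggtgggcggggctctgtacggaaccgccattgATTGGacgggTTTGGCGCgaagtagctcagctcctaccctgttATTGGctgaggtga
Rrm1: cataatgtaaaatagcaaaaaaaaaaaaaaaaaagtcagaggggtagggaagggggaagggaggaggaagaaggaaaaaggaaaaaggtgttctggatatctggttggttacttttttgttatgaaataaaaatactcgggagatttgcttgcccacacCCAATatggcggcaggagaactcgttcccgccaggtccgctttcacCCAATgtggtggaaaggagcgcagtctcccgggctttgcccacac
Top2a: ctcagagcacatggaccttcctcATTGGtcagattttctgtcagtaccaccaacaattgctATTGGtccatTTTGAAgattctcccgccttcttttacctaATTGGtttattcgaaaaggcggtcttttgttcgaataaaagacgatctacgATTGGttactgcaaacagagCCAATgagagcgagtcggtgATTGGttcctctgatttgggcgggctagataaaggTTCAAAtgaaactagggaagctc
Ube2c: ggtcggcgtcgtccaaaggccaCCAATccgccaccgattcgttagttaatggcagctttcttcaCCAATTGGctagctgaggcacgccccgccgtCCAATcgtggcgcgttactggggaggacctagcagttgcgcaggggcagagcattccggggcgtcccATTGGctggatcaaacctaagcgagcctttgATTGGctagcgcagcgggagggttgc
Birc5: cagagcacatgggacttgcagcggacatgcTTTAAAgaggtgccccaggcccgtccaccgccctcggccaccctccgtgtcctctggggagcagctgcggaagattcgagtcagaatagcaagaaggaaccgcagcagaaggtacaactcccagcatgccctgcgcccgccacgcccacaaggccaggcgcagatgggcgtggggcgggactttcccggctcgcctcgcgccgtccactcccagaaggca
In the printed stretches, Mcm6 has 3 E2F matches and 2 CCAAT matches, Mcm3 has 3 CCAAT matches, and Rrm1 has 2 CCAAT matches. Top2a has 2 CHR and 6 CCAAT matches, Ube2c has 6 CCAAT matches, and Birc5 has 1 CHR match and no CCAAT match. A match describes the letters in the window and does not show that a factor binds there.

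Within the proliferating clusters, cells were then split by single genes at a common depth of 4000 UMIs. Mcm5 served as the S phase marker and Cdc20 as the mitotic marker. In Prolif CD8 T cells 138 of 397 cells had an Mcm5 UMI, in Prolif TAM 58 of 329, and in the B16 table's Mac-Prolif it was 76 of 317. In all 3 clusters the other 13 S phase genes were each above a ratio of 1 in cells with Mcm5, with median ratios of 1.33, 2.11 and 2.10. Of the 20 G2/M genes 6, 11 and 5 were above 1.

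Rrm2 in Prolif TAM measured 220 CPM in cells with Mcm5 and 81.2 CPM in cells without, a ratio of 2.71 (1.88 to 3.87). Ccnb2 went the other way, at 51.7 against 191 CPM, a ratio of 0.271 (0.138 to 0.483). Top2a, made from S phase onwards, was higher in cells with Mcm5 in Prolif TAM, at 638 against 429 CPM. Top2a and Ccnb2, both counted as G2/M genes, therefore differed in sign in that cluster.

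With Cdc20 as the marker, 0 of 14 S phase genes were above 1 in each of the 3 clusters, and their median ratios were 0.629, 0.488 and 0.544. Of the other 19 G2/M genes, 19 were above 1 in Prolif CD8 T cells, 16 in Prolif TAM and 14 in Mac-Prolif, with median ratios of 1.501, 1.497 and 1.43. Pcna in Prolif CD8 T cells measured 79.0 CPM in cells with Cdc20 and 178 CPM in cells without, a ratio of 0.445 (0.316 to 0.615). Ccnb2 in the same cells measured 350 against 179 CPM, a ratio of 1.96 (1.60 to 2.41). The proliferating clusters thus held cells weighted to S phase and cells weighted to mitosis. Both markers come from the list itself, so these ratios describe how the members sort among cells.

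The proliferating clusters of T cells and macrophages were also compared with each other. Between Prolif CD8 T cells of B16 and Prolif TAM of LLC, 8 of 14 S phase genes were higher in the T cells and 6 were between, where 51.0% of all genes were called in either direction, 22.1% higher in the T cells and 29.0% lower. The share of S phase genes called in either direction is thus near that of all genes, but all 8 were higher in the T cells, as were 22.1% of all genes. Whether the share called differs from that of G2/M genes was not tested. The largest ratio was that of Dut, which removes dUTP from the nucleotide pool, at 735 CPM in the T cells and 125 CPM in the macrophages, a ratio of 5.87 (5.42 to 6.35). Mcm4 followed with 89.8 against 34.99 CPM, a ratio of 2.57 (2.19 to 3.02). Of the G2/M genes 18 of 20 were between the limits, Nusap1, a spindle protein, was higher (233 against 149 CPM) and Bub1, a checkpoint kinase, was lower (60.9 against 95.7 CPM). Birc5 measured 513 CPM in the T cells and 511 CPM in the macrophages.

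Both lineages could also be compared within the B16 library. Between CD8 T cells-Prolif and Mac-Prolif, 8 of 14 S phase genes were higher in the T cells and 6 between, and 18 of 20 G2/M genes were between (all genes: 51.1% called, 24.0% higher and 27.1% lower). Between the dividing macrophages of the tumours, Prolif TAM of LLC and Mac-Prolif of B16, all 14 S phase genes and all 20 G2/M genes stayed between the limits, where 27.1% of all genes were called. Their ratios ran from 0.758 to 1.13 for S phase and from 1.04 to 1.48 for G2/M. Of the genes in neither list, Stmn1 had a ratio of 1.10 and Hmgb2 was lower in Prolif TAM, at 925 against 1453 CPM, a ratio of 0.637 (0.616 to 0.659).

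Prolif TAM cells carried macrophage and monocyte markers at 17990 CPM over 10 genes, T cell markers at 2.72 CPM, and CD8 markers at 0. Neutrophil markers stood at 988 CPM in them and at 847 CPM in TAM-2 of LLC. Of the Prolif TAM cells 7.9% were among the 6% of the library with the highest doublet scores. Prolif CD8 T cells were divided by the B16 table's names. Of their cells, 356 were named CD8 T cells-Prolif in the B16 table, but 25 were named Mac-Prolif there and carried macrophage markers at 11570 CPM beside T cell markers at 1812 CPM. All 25 were among the 6% of the library with the highest doublet scores, with a median of 28672 UMIs. The cluster's levels were not recomputed without high doublet scores, only its S to G2/M ratio was, so the part of these cells in the levels was not tested. The 11 LLC cells of the same name carried macrophage and monocyte markers at 1777 CPM, NK markers at 1206 CPM and T cell markers at 713 CPM. Their cDC1 markers measured 480 CPM (on 1 gene) and their CD8 markers 51.9 CPM. These values do not bear out the label, and the 11 cells enter no comparison.

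TAM-3 of B16, 1292 macrophages, had an S phase sum of 1127 CPM (1113 to 1141) and a G2/M sum of 1267 (1252 to 1283). After thinning, 38.4% (35.8 to 41.2) of 1283 cells were S cells and 29.4% (26.9 to 32.0) were G2/M cells, with 239 cells at exactly 1 G2/M gene and 87 at 2. The B16 table divides these cells. Its Mac-Prolif holds 288 of them, with a G2/M sum of 3678 CPM and 276 G2/M cells, while 671 belong to Mac-1 (309 CPM) and 290 to Mac-2 (241 CPM). The dividing macrophages that are a cluster of their own in LLC were thus inside TAM-3 in B16.

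The cDC1 of B16, 134 cells, had a G2/M sum of 2269 CPM and an S phase sum of 1269, and 42.1% (33.6 to 51.0) of 133 cells were G2/M cells. Mki67 measured 226 CPM in them and Ube2c 297 CPM. The label covers 2 kinds of cells by the other annotation, which names 114 cDC1, with a G2/M sum of 1757 CPM and cDC1 markers at 3480 CPM. It names 19 cDC2, of which 18 were G2/M cells, with a G2/M sum of 5145 CPM, cDC2 markers at 441 CPM and cDC1 markers at 199 CPM. These 19 cells also held macrophage and monocyte markers at 1499 CPM over 10 genes and T cell markers at 287 CPM. In the 136 cells named cDC2 by both annotations, cDC2 markers measured 980 CPM and macrophage and monocyte markers 737 CPM. Under the B16 table's names cDC1 had 1828 CPM and cDC2 1031 CPM of G2/M transcripts, against 2269 and 106 in the joint table.

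Tregs-1 of B16, regulatory T cells, had sums of 1223 CPM for S phase and 421 CPM for G2/M, and 23.1% (19.6 to 27.0) of 523 cells were S cells and 9.56% were G2/M cells. Of their Mcm genes, Mcm5 measured 82.0 CPM, between the 106 CPM of CD8 T cells and the 0 to 0.582 CPM of neutrophils. In B16 plasma cells, antibody-secreting cells, the G2/M sum of 444 CPM lay largely in a few of the 54 cells, since 6 cells held 92.3% of its UMIs. G2/M cells were deeper than the other cells of their cluster in most clusters examined. In B16 the medians were 18686 against 14746 UMIs in TAM-3 and 21213 against 16330 in cDC1. They were 10058 against 4429 in Tregs-1 and 16604 against 10693 in CD8 T cells. In LLC they were 15717 against 15069 in TAM-2 and 8176 against 5552 in monocytes. Monocytes of B16 went the other way, with 5782 (3 cells) against 6462.

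The remaining pair of genes behaved differently from each other. Stmn1, which destabilises microtubules, followed both lists, at 842 CPM in Prolif TAM, 228 in TAM-2, 989 in Prolif CD8 T cells, 280 in CD8 T cells, and 7.27 (LLC) and 21.0 (B16) in neutrophils. Hmgb2, a chromatin protein, measured 925 CPM in Prolif TAM and 2794 CPM in Prolif CD8 T cells, but also 954 CPM in LLC and 959 CPM in B16 neutrophils. After thinning, 76.8% of LLC and 68.6% of B16 neutrophils had an Hmgb2 UMI, against 67.6% of Prolif TAM cells. In LLC its highest level was in Neutrophil-1, at 1157 CPM, so Hmgb2 there was no higher in dividing macrophages than in neutrophils, while in B16 Mac-Prolif reached 1453 CPM.

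Across the 35 clusters, the log2 S phase sum and the log2 G2/M sum correlated with a Pearson r of 0.869, which is a description over clusters that share libraries and depth. Pclaf, listed as an S phase gene, correlated at 0.947 with the G2/M sum and at 0.855 with the S phase sum that contains it. Mcm2, Mcm3 and Mcm4 correlated at 0.913, 0.902 and 0.863 with the S phase sum and at 0.704, 0.683 and 0.667 with the G2/M sum. Hmgb2 correlated at 0.376 and 0.601 and Stmn1 at 0.927 and 0.919. Outside the list, and among genes that reached 50 CPM in at least 1 cluster, the genes most like the S phase sum were Smc2 (0.952), Fignl1 (0.938), Prim1 (0.936), Nasp (0.928) and Cenpk (0.923). Those most like the G2/M sum were Sgo2a (0.943), Nuf2 (0.941), Spc24 (0.940), Ncapg (0.935) and Spc25 (0.933), of which Nuf2, Spc24 and Spc25 belong to the kinetochore complex that holds microtubules.

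Between the tumours, cell cycle genes were lower in the monocytes and macrophages of LLC. Over all such clusters of the joint table, with 9194 LLC and 2742 B16 cells, the S phase sum was 393 CPM for LLC and 807 CPM for B16, a ratio of 0.487 (0.479 to 0.495). The G2/M sum was 393 against 851 CPM, a ratio of 0.462 (0.454 to 0.469). Of the members, 13 of 14 S phase genes, 20 of 20 G2/M genes and both other genes were lower, whereas of 11261 genes measured 23.8% were called in either direction and 11.9% were lower. The median log2 ratio was −1.01 for S phase and −1.15 for G2/M members and 0.02 for all genes.

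Rrm2 had the lowest ratio, with 13.1 CPM against 36.8 CPM (0.355, 0.326 to 0.386). Ccnb2 measured 15.3 against 42.6 CPM (0.360) and Tk1 20.6 against 56.5 CPM (0.364). Gmnn was the S phase gene that stayed within the limits, at 50.1 against 72.8 CPM. Of 9061 thinned LLC cells 8.15% (7.59 to 8.73) were S cells and 4.40% (3.99 to 4.85) were G2/M cells, and of 2703 B16 cells 20.6% (19.1 to 22.2) and 15.1% (13.7 to 16.5), so the direction was the same by cells. Without thinning, 31.3% and 11.4% of the LLC cells and 54.1% and 33.8% of the B16 cells were S and G2/M cells. In such sums fewer dividing cells and less RNA per dividing cell cannot be told apart.

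The composition behind these sums differed. In LLC, Prolif TAM made up 3.60% of these cells and held 82.3% of their G2/M UMIs and 34.0% of their S phase UMIs, and TAM-2 made up 4.84% and held 31.3% of the S phase UMIs. In B16, TAM-3 made up 47.1% and held 88.4% of the S phase and 94.3% of the G2/M UMIs. Leaving out the proliferating cluster, which takes the dividing cells from LLC but leaves those of B16 inside TAM-3, gave a G2/M ratio of 0.0900 and an S phase ratio of 0.349. Leaving out the Mac-Prolif cells of B16 as well, an alternative added after seeing the data, gave 0.380 and 0.513. Both ratios stayed below 1 in these alternatives. Cells with S phase and G2/M genes remained on both sides, since TAM-2 of LLC held 251 S cells and 45 G2/M cells and the Mac-1 cells within TAM-3 held 243 and 70.

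**Figure D5:**
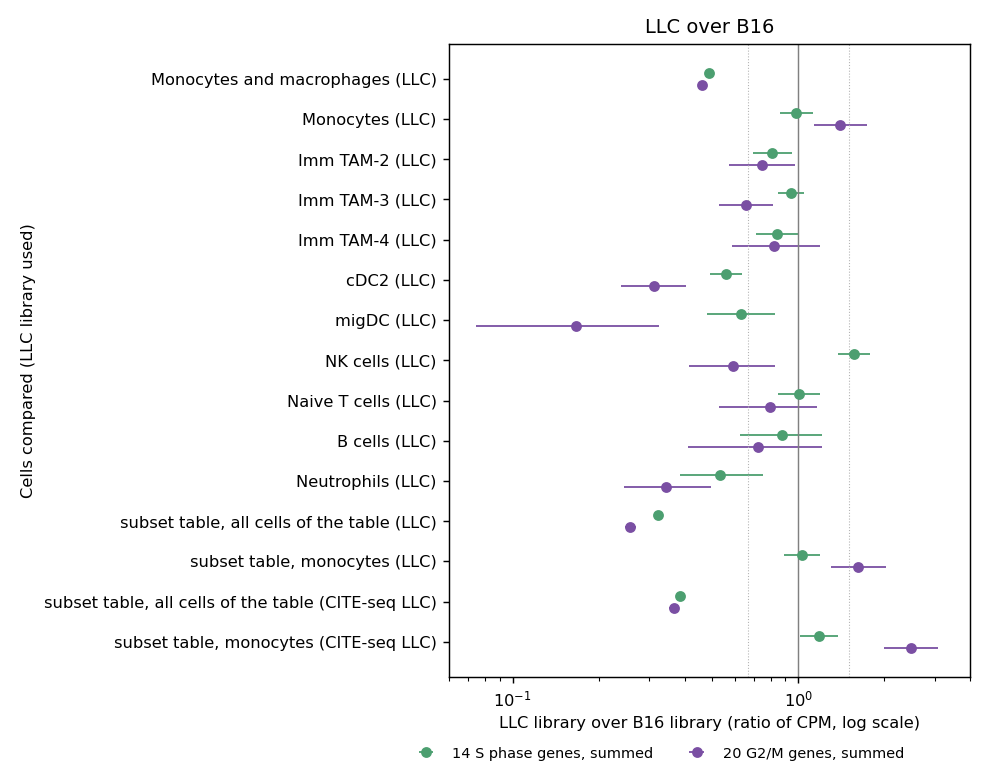
Ratio of the S phase sum and of the G2/M sum in LLC to that in B16 (log axis, bars are exact 95% intervals, line at 1) for the clusters found in both tumours (neutrophil clusters merged), for all monocytes and macrophages, and for the table of monocytes and macrophages (rows marked subset table). Most G2/M ratios lie below 1; those of the monocytes lie above it.

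Among the 11 clusters with enough cells in both tumours, the interval of the G2/M ratio lay below 1 in 7 and above 1 in 1, and that of the S phase ratio below 1 in 5 and above 1 in 1. The G2/M exception was the monocytes, with 60.04 CPM in LLC (998 cells) and 43.0 CPM in B16 (423 cells), a ratio of 1.40 (1.13 to 1.74). Of 7 G2/M genes measured 4 were higher, whereas of 9382 genes measured 19.5% were called and 8.27% were higher. Ccnb2 measured 8.43 against 2.53 CPM, a ratio of 3.34 (1.503 to 8.73), and Ube2c 21.9 against 11.2 CPM. Pclaf, an S phase gene, measured 13.6 against 3.61 CPM, a ratio of 3.76 (1.94 to 8.15). Of 12 measured S phase genes it alone was higher, and the S phase sums were 118 and 119.5 CPM. These levels are low, and 100 of the 998 LLC monocytes held 73.4% of the G2/M UMIs while 805 held none. In B16, 43 of the 423 monocytes held 61.3% and 334 held none. The B16 table names 285 of these B16 cells Mono-NC (non-classical monocytes) and 124 Mono. Their G2/M sums were 38.6 and 51.5 CPM, and LLC was not compared with either kind alone.

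The S phase exception was the NK cells, with a sum of 609 CPM in LLC (131 cells) and 389 CPM in B16 (276 cells), a ratio of 1.56 (1.37 to 1.78). Of 11 S phase genes measured 7 were higher, whereas of 7354 genes 24.8% were called and 9.31% were higher. Mcm3 measured 59.9 against 27.5 CPM and Dut 135 against 75.6 CPM. Their G2/M sums went the other way, at 64.1 and 108 CPM, a ratio of 0.591 (0.414 to 0.830). Among LLC NK cells 14 held 66.4% of the S phase UMIs, and among B16 NK cells 28 held 45.5%. The ratio of the means over cells was 1.17. After thinning, 18.3% (11.9 to 26.4) of 120 LLC and 13.4% (9.45 to 18.2) of 254 B16 NK cells were S cells, with overlapping intervals. LLC NK cells also held neutrophil markers at 2028 CPM against 107 CPM in B16, beside NK markers at 2036 and 2244 CPM; their part in the result was not tested.

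In cDC2, dendritic cells that present antigen to CD4 T cells, both sums were lower in LLC (314 cells) than in B16 (166 cells). The S phase sum was 156 against 279 CPM, a ratio of 0.558, and the G2/M sum 33.0 against 106 CPM, a ratio of 0.312. Of the measured members, 10 of 12 S phase and 7 of 7 G2/M genes were lower, whereas 25.8% of 8769 genes were called and 9.48% were lower. Ccnb2 rested on 2 UMIs in LLC and 26 in B16 (0.776 against 13.4 CPM, a ratio of 0.0581, 0.00668 to 0.232) and Ube2c on 4 and 27 UMIs. In migratory dendritic cells (migDC) the G2/M sum rested on 9 LLC and 138 B16 UMIs, with a ratio of 0.167 (0.0746 to 0.326), and 6 S phase genes were measured, of which 2 were lower and 1 higher (27.7% of genes called).

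Levels in the other shared clusters were low, and most ratios rested on few UMIs. In immature macrophages Imm TAM-3, 4 of 8 measured G2/M genes were lower in LLC and Mki67 was higher (22.2% called). Top2a measured 3.39 against 9.86 CPM there, a ratio of 0.344 (0.157 to 0.679), while the Mki67 interval, 0.818 to 4.06, included 1. In Imm TAM-2, 2 of 12 S phase genes were lower, among them Pcna at 32.7 against 56.5 CPM, and of 5 G2/M genes 1 was lower and 1 higher (30.1% called). In Imm TAM-4, with 2675 LLC and 69 B16 cells, the S phase sums were 156 and 186 CPM and the intervals of both ratios included 1. Naive T cells had S phase sums of 348 and 346 CPM, and of 13 measured S phase genes 2 were higher and 2 lower (26.5% called). Few members were measured in B cells, where Top2a was lower (31.5% called), and in neutrophils, where 2 of 4 S phase and 1 of 2 G2/M genes were lower (45.7% called). The neutrophil sums were 48.9 against 91.5 CPM for S phase and 32.3 against 93.4 CPM for G2/M.

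The table of monocytes and macrophages offered the CITE-seq library as a further LLC sample from another host strain. It includes none of the 331 Prolif TAM cells, 8.32% of the TAM-2 cells and 72.8% of the TAM-3 cells of B16. Over all its cells the S phase sum was 165 CPM for LLC, 197 CPM for the CITE-seq library and 509 CPM for B16. The G2/M sums were 48.6, 69.0 and 188 CPM in the same order. Both LLC libraries therefore lay below B16, with S phase ratios of 0.323 and 0.386 and G2/M ratios of 0.259 and 0.367, and both comparisons use the same B16 cells. The table leaves out the LLC clusters richest in these genes but keeps most TAM-3 cells of B16. This unequal selection enters the ratios of LLC to B16, and its part in them was not tested.

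All 36 members were lower in LLC than in B16 there, against 23.7% of genes called, under the same unequal selection of cells. In the CITE-seq library 14 of 14 S phase and 18 of 20 G2/M genes were lower, against 21.0% called, with Cenpf (3.30 against 3.39 CPM) and Nusap1 (1.38 against 1.98 CPM) within the limits. Tk1 and Rrm2 had the lowest ratios, at 0.102 and 0.128 in LLC and at 0.152 and 0.108 in CITE-seq LLC.

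Within clusters of that table the order of the libraries varied. Of the 3 clusters compared between LLC and B16, the G2/M ratio was 0.608 in Mono/TAM Hypoxic, 0.649 in Mono/TAM IFN and above 1 in the monocytes, and the S phase ratios were 0.782, 1.15 and 1.03. For CITE-seq LLC the G2/M ratio to B16 was above 1 in 3 of 4 clusters, at 1.27 (0.830 to 1.88) in Immature TAM-1, 0.949 (0.696 to 1.30) in Mono/TAM Hypoxic and 1.12 (0.880 to 1.44) in Mono/TAM IFN, beside the monocytes. Its S phase ratios were 1.04, 0.848, 1.16 and, in the monocytes, 1.18. The lower sums over all cells of CITE-seq LLC were thus not found within most of these clusters. TAM-1 of that table, which held 86.8% of its B16 G2/M UMIs, is not among them.

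Most of the LLC monocytes of the joint table recur in that table (977 of 998). In LLC the G2/M sum of its monocytes was 73.5 CPM, in the CITE-seq library 112 CPM, and in B16 45.4 CPM. The ratios to B16 were 1.62 (1.30 to 2.03) and 2.48 (1.999 to 3.09), with Mono-NC and Mono cells of B16 not separated. In LLC 3 of 5 measured G2/M genes were higher (17.8% of all genes called and 7.52% higher), and in CITE-seq LLC 6 of 7 were (17.4% called and 7.13% higher). Ccnb2 measured 12.5, 24.7 and 2.74 CPM in the same order, on 51, 72 and 7 UMIs. Birc5, the passenger protein survivin, measured 7.13, 13.7 and 3.13 CPM. Mki67 in CITE-seq LLC rested on 27 UMIs against 4 in B16 (9.25 against 1.56 CPM, a ratio of 5.92, 2.06 to 23.3).

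The LLC libraries of the monocyte and macrophage table also differed from each other. Over all cells there, 7 of 20 G2/M and 2 of 14 S phase genes were higher in CITE-seq LLC and none was lower, where 5.85% of 11307 genes were called and 3.03% were higher. Nusap1 measured 1.38 against 0.550 CPM, a ratio of 2.52 (1.67 to 3.89), Birc5 6.96 against 3.81 CPM, and Mcm5 10.7 against 6.08 CPM. The G2/M sum was higher in CITE-seq LLC than in LLC in 9 of 9 clusters, by ratios from 1.19 to 1.73, with the interval above 1 in 8. The S phase sum was higher in 8 of 9, from 0.992 to 1.15, with the interval above 1 in 3. Host strain and library differ together here and cannot be told apart.

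Genes around the members were followed in 5 further lists for all monocytes and macrophages of the joint table, where 11.9% of all genes were lower and 11.9% were higher. Of 28 other S phase genes 23 were lower in LLC, and of 33 other G2/M genes 25 were lower. Of 10 G1 cyclins and kinases, which act before S phase, 3 were lower (Ccnd2 at a ratio of 0.369, Ccne1 at 0.420 and Ccnd1 at 0.648), Cdk6 was higher at 1.63 and 6 were between. Of 11 inhibitors of the cycle 4 were higher and 6 were between. Cdkn2a had no UMI in the whole LLC library and was therefore left out of the calls. It held 0 UMIs in LLC and 41 in B16, which at 3 UMIs is at least 31.5-fold lower in LLC. Cdkn1a (p21, a kinase inhibitor) measured 356 CPM against 218 CPM, a ratio of 1.63 (1.59 to 1.68), and Btg1, an antiproliferative gene, had a ratio of 1.75. Cdkn1c had a ratio of 1.98, and Cdkn2b rested on 5 B16 UMIs. Among 8 regulators of the anaphase ubiquitin ligase and mitotic exit, Fbxo5 (0.410) and Mad2l1 (0.447) were lower and 6 were between. The share called is near the 23.8% of all genes called in either direction.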

How the data were processed

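The authors' deposited tables hold UMI counts per gene and cell, as whole numbers, from 10x Genomics libraries. The submitters' processing notes name Cell Ranger and the mm10 build; its version, and how reads shared with pseudogene copies were assigned, are not given in the sources used. Cluster names are the authors', per the file headers.

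The 36 members, the further gene lists and the tests were chosen with earlier results of these data known. Counts were summed over the cells of a cluster and library and divided by the summed UMIs of all genes (CPM). With 1 library per group there is no test and no p-value: ratios carry exact conditional binomial intervals, sums exact Poisson intervals and shares Clopper-Pearson intervals, all at 95%. A gene counted as measured from 20 UMIs on both sides together, unless 1 side had none and 3 UMIs there would have turned the direction, and was called past 1.5-fold; genes with no UMI in 1 of the whole libraries compared were left out. Named members are the 3 at each end of a comparison and, in every cluster, Mki67, Top2a, Ccnb2, Cdk1, Cdc20, Stmn1, Hmgb2, Pclaf, Rrm2, Tyms, Pcna and Mcm5; others were named after their values were seen. Cells with fewer than 2000 UMIs were left out of shares of cells, and deeper cells were thinned to 2000. Doublets were kept; scores from simulated doublets (30 components, 2000 variable genes) marked the top 6% of each library, which an alternative leaves out. Clusters under 50 cells enter no comparison. Promoter windows and gene positions are from the RefSeq and GENCODE tables for GRCm38. The scripts were tested on simulated data. Python 3.11.15, numpy 2.4.6, scipy 1.17.1, pandas 2.3.3, scikit-learn 1.9.0 and matplotlib 3.10.9 were used.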

Additional observations from a re-analysis of the deposited data

Results flagged for a closer look

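The S phase sum of NK cells was higher in LLC than in B16, with a ratio of 1.56, while the S phase ratio of monocytes and macrophages together was 0.487. The directions are opposite, and the difference was not tested.

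In the table of monocytes and macrophages, the G2/M sum of monocytes was higher in LLC than in B16, with a ratio of 1.62, while over all cells of that table the ratio was 0.259. For the CITE-seq LLC library the monocytes had a ratio of 2.48 and all cells a ratio of 0.367. Both monocyte ratios use the same B16 monocytes, in which Mono-NC and Mono cells were not separated. The ratios over all cells also depend on which cells that table includes. The differences in direction were not tested.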

How the results depend on the processing

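Of 105 alternative values for 29 results, 59 stayed within the counting interval or within 1.5 times the main count and 46 moved. A change of direction was looked for only in ratios of sums between libraries and in S to G2/M ratios, and 0 were found. Shares of cells, levels and counts of members could only stay or move. No paired analysis was possible because each group is 1 library and no result comes from a test over samples; for the same reason no replicate could be left out. The values that moved follow, and the cause was not tested except where fewer UMIs or cells are the alternative itself. For LLC over B16 in monocytes and macrophages, the S phase ratio was 0.468 by the mean of cells, 0.499 without the cells of highest doublet score, 0.349 without the proliferating cluster and 0.513 without the proliferating cells of both annotations, and the G2/M ratio 0.392, 0.476, 0.0900 and 0.380 in that order. At a fold of 2, 22 members were lower instead of 35. The NK S phase ratio was 1.17 by the mean of cells. For CITE-seq LLC over B16 the S phase ratio was 0.375 with median-of-ratios scaling and 0.457 by the mean of cells, and the G2/M ratio 0.435 by the mean of cells. Thinned to 1000 UMIs, thinned to 4000 UMIs and at 3 or more genes, the share of G2/M cells was 21.9%, 39.1% and 22.6% in TAM-3 and 78.0%, 99.4% and 83.6% in Prolif TAM, and the share of S cells 36.2%, 76.9% and 38.7% in TAM-2 and 35.5%, 72.8% and 35.3% in CD8 T cells. At 1000 UMIs 31.3% of cDC1 were G2/M cells. Mki67 was seen in 8.52% and 24.3% of TAM-3 cells and Mcm5 in 11.3% and 38.4% of TAM-2 cells at 1000 and 4000 UMIs. Under the B16 table's names, G2/M sums were 1031 CPM in cDC2, 1828 in cDC1 and 4008 in proliferating CD8 T cells, the CD8 T cell S phase sum was 1081, and S to G2/M ratios were 4.47 (CD8 T cells) and 0.861 (proliferating). By the mean of cells, cDC1 had 1849 CPM, Prolif CD8 T cells 5025 and CD8 T cells 1581 (S phase). Without Dut and Top2a the S to G2/M ratio was 0.438 in Prolif TAM, 5.47 in TAM-2, 0.546 in Prolif CD8 T cells, 3.60 in CD8 T cells and 0.938 in TAM-3, and without high doublet scores 4.06 in CD8 T cells. Leaving out the proliferating cluster could not be run in the monocyte and macrophage table, which holds none of its LLC cells.

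Depth limits the shares of cells more than the sums. Monocyte, dendritic and NK comparisons rest on few UMIs for most G2/M genes, so many members were not measured there. A depth of 2000 UMIs left out most neutrophils. With 1 library per tumour, none of the differences between tumours can be set against the spread between animals.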
